A study of Rattus norvegicus with 18 samples.

Results

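Stab1, Dlk1, Selenop, Fam180a and Capns1 are 5 protein-coding genes that were higher in neonatal rat ventricular cardiomyocytes infected with a virus carrying sORF6 than in cells infected with that virus's control. They were picked by symbol from a table of 19880 genes because of that rise, so their values in the sORF6 comparison are given as a description, without a test. All 5 passed the filter on low counts that left 14870 genes to test. Stab1 and Dlk1 code for proteins of the cell surface and Selenop and Fam180a for secreted or predicted secreted ones, while Capns1 codes for a subunit of an enzyme inside the cell.

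The cells came from the ventricles of Sprague-Dawley rats at postnatal day 2 and were cleared of some non-cardiomyocytes by pre-plating. Every group was treated with phenylephrine, which stimulates alpha-1 adrenergic receptors and makes cardiomyocytes in culture grow, at 20 µM for 24 h, so no library shows these genes without phenylephrine. There were 6 groups of 3 libraries: the viruses labelled ad-sORF6, ad-sORF7 and ad-sORF8, and a separate control virus for each. The sources used here do not give what the control viruses carry, nor whether replicates were cultured separately. P-values therefore cover spread among these libraries that may be technical alone. Total estimated counts ran from 15697177 to 17658137 per library. Replicate 2 of the sORF6 control and replicate 1 of the sORF7 control stood apart from their groups, and results that rest on them are given with and without them.

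Stabilin-1, the product of Stab1, is a large scavenger receptor of macrophages and sinusoidal endothelium that takes up modified lipoproteins and the matrix protein SPARC. DLK1 is a transmembrane protein with EGF-like repeats, related to the Notch ligands but without their receptor-binding DSL domain. It is shed from the cell surface, and its gene is imprinted. Selenoprotein P, the product of Selenop, carries selenium in plasma as selenocysteine and is made mainly by the liver. Fam180a codes for a little-studied protein that is predicted to be secreted. Capns1 codes for the small regulatory subunit shared by the calcium-dependent proteases calpain-1 and calpain-2.

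In the Rnor_6.0 coordinates of the deposited table, the 5 genes lie on 5 chromosomes. Stab1 (gene ID 100363145) spans chr16:7220434-7250934 on the minus strand, Dlk1 (114587) chr6:133576513-133584715 on the plus strand, Selenop (29360) chr2:53105912-53116198 on the plus strand, Fam180a (362336) chr4:62845054-62860361 on the minus strand and Capns1 (29156) chr1:91058081-91064991 on the minus strand. Their promoter windows are shown because the first 4 genes moved together across the groups, as described below. Each window is the RefSeq sequence in build GRCr8 from 250 bases before to 50 bases after an annotated start, written 5′ to 3′ on the gene's strand, and capitals mark a match to a searched motif. The windows are chr16:6367310-6367609 for Stab1, chr6:134192347-134192646 for Dlk1, chr2:54225662-54225961 for Selenop (the second of its 2 windows) and chr4:64975127-64975426 for Fam180a.
Stab1: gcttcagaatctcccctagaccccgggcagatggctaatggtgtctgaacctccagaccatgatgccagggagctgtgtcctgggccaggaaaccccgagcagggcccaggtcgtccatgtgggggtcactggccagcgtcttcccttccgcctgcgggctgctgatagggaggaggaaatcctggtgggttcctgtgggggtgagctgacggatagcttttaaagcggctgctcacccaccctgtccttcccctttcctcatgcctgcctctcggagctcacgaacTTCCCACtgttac
Dlk1: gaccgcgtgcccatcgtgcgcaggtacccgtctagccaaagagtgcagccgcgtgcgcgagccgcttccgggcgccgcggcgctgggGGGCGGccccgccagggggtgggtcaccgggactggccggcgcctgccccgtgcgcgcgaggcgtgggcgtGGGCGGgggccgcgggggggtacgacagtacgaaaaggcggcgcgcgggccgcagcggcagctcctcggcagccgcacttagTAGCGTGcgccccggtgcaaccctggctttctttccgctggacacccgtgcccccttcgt
Selenop: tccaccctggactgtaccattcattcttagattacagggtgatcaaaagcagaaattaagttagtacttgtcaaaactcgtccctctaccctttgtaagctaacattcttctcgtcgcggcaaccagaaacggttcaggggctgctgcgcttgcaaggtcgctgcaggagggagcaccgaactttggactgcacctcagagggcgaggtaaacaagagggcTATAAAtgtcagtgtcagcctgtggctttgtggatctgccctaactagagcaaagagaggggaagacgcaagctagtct
Fam180a: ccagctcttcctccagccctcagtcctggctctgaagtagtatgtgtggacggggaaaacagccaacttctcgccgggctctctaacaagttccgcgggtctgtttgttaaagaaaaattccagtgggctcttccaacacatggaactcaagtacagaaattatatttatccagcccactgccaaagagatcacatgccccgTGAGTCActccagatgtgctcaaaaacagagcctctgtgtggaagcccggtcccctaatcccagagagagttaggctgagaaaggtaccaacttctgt

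The 4 printed windows differed in composition and shared no searched motif. Dlk1 had 76.0% G and C and 45 CpG dinucleotides, against medians of 51.7% and 7 over all 33469 RefSeq promoter windows. Stab1 had 61.0% G and C with 10 CpG, Fam180a 50.3% with 7, and the printed Selenop window 10 CpG. On both strands, 8 motifs were searched: TATAAA for the TATA box, CCAAT for the CCAAT box, GGGCGG for the GC box, TTCNNNGAA for STAT factors, TGANTCA for AP-1, GTGGGAA for RBPJ, TNGCGTG for the aryl hydrocarbon receptor, and the core of the interferon-stimulated response element. CCAAT stands in 37.5% of all windows and TTCNNNGAA in 8.87%, and neither was in a window of the 5 genes. The Stab1 window held GTGGGAA, the letters bound by the Notch effector RBPJ, read on the other strand as TTCCCAC and starting at base 38 after the start, and 6.29% of all windows hold it. Dlk1 held 2 copies of GGGCGG, the GC box (33.1% of windows), and 1 of TNGCGTG, the core bound by the aryl hydrocarbon receptor (4.89%). Selenop held TATAAA, the TATA box, beginning at base -29 (14.2%). The other Selenop window, chr2:54225486-54225785, held the core of the interferon-stimulated response element (3.92%). Fam180a held TGANTCA, the AP-1 site, at base -48 (7.33%), and so did the Capns1 window (chr1:94582172-94582471), which also held 2 copies of the GC box. These matches describe the letters and are not evidence of binding.

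Per length, all 5 genes were expressed at low to moderate levels in these cultures. Mean FPKM over the 18 libraries, a level that is corrected for transcript length, was 23.2 for Selenop, 13.9 for Capns1, 8.23 for Dlk1, 7.13 for Fam180a and 0.658 for Stab1. Selenop stood higher than 75.5% of the tested genes, and Stab1 stood higher than 13.1% of them. The Stab1 values rest on 44.0 to 207 estimated counts per library, for which counting alone gives a coefficient of variation of 15.1% at the lowest and 6.95% at the highest.

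Stab1, the receptor, was read at 12.04, 11.04 and 11.02 normalised CPM, counts scaled to the library's total, in the 3 sORF6 libraries and at 4.77, 4.69 and 4.96 CPM in their controls. The sORF7 libraries held 2.63, 2.49 and 2.89 CPM, and their controls 4.41, 4.02 and 3.38 CPM. The sORF8 libraries held 5.24, 3.59 and 3.99 CPM, and their controls 5.17, 5.34 and 4.45 CPM. Stab1 was thus highest in sORF6 and lowest in sORF7, each without overlap with any other group, and the 4 groups between them overlapped with their neighbours in the order of means.

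Dlk1, the Notch ligand relative, had 18.9, 20.6 and 22.5 CPM with sORF6 and 13.8, 13.1 and 12.7 CPM in the controls of sORF6. With sORF7 it had 7.90, 8.15 and 5.95 CPM, against 12.4, 11.2 and 10.7 CPM in its controls. With sORF8 it had 10.5, 9.80 and 12.2 CPM, against 11.9, 12.6 and 11.7 CPM. Every sORF6 library lay above and every sORF7 library below all libraries of the other 4 groups, and the sORF8 libraries overlapped with their controls.

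Selenop, the selenium carrier, had 75.6, 76.8 and 72.2 CPM with sORF6 and 44.2, 53.4 and 51.4 CPM in the controls of sORF6. With sORF7 it had 30.5, 36.1 and 31.9 CPM, against 42.7, 50.5 and 42.2 CPM. With sORF8 it had 39.0, 41.1 and 40.1 CPM, against 40.6, 39.9 and 42.3 CPM. Here too sORF6 was above and sORF7 below every other group, and the sORF8 libraries overlapped with their controls.

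Fam180a had 16.1, 16.0 and 16.3 CPM with sORF6 and 10.1, 8.75 and 11.3 CPM in the controls of sORF6. With sORF7 it had 7.40, 7.02 and 7.31 CPM, against 9.45, 11.5 and 9.11 CPM. With sORF8 it had 10.7, 10.96 and 11.5 CPM, against 12.01, 11.5 and 14.1 CPM. The sORF6 libraries were again the highest and the sORF7 libraries the lowest of all, and the sORF8 libraries lay below their controls by a narrow gap, 11.48 against 11.54 CPM at the closest pair.

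Capns1, the calpain subunit, did not share this order. It had 12.97, 12.7 and 13.04 CPM with sORF6 and 8.22, 5.74 and 8.66 CPM in the controls of sORF6. With sORF7 it had 9.42, 11.1 and 12.8 CPM, against 17.9, 9.38 and 10.9 CPM. With sORF8 it had 11.996, 11.02 and 10.1 CPM, against 10.3, 8.56 and 6.15 CPM. The highest single value was in replicate 1 of the sORF7 control, one of the 2 libraries that stood apart, and each group overlapped with the next in the order of means.

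**Figure D1:**
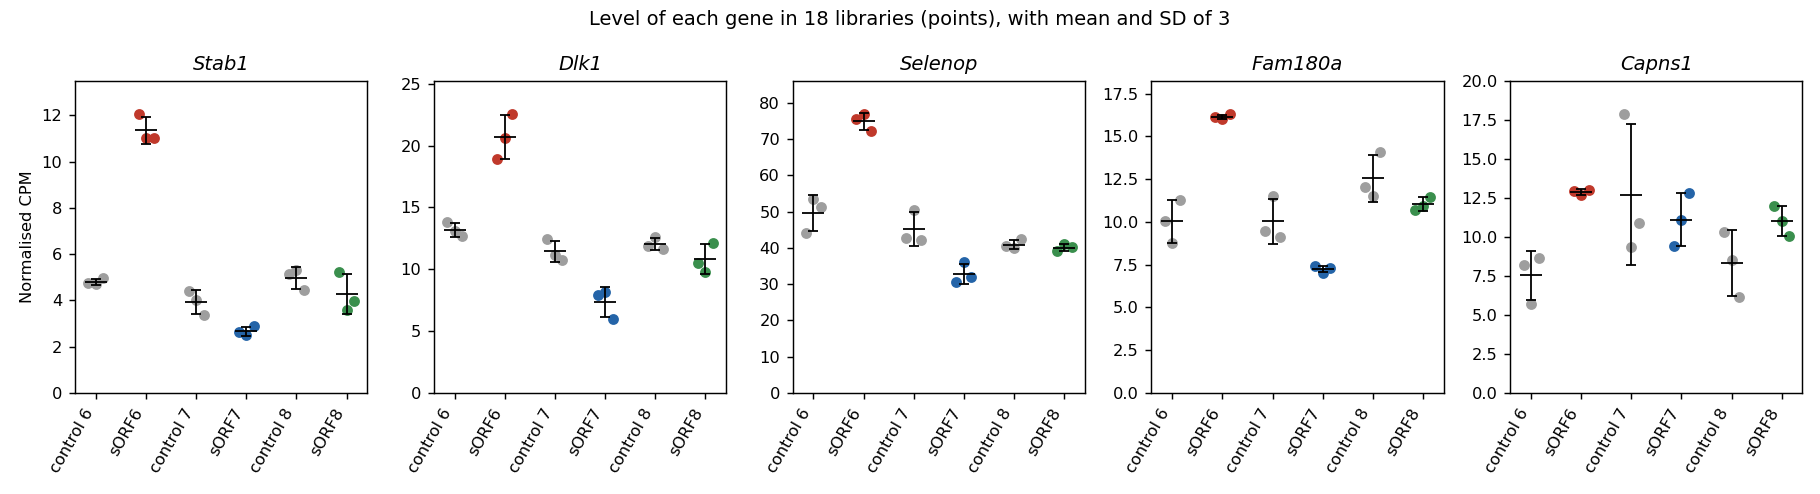
Normalised CPM of Stab1, Dlk1, Selenop, Fam180a and Capns1 in each of the 18 libraries, with the mean and SD of the 3 libraries of each group on linear axes that start at 0. Stab1, Dlk1, Selenop and Fam180a are highest in the sORF6 libraries and lowest in the sORF7 libraries, and Capns1 is highest in 1 library of the sORF7 control.

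In the sORF6 comparison, for which the genes were picked, the log2 fold change was 1.24 ± 0.14 (SE) for Stab1, a 2.36-fold higher level. It was 0.77 ± 0.21 for Capns1, 0.68 ± 0.10 for Fam180a, 0.65 ± 0.10 for Dlk1 and 0.59 ± 0.07 for Selenop, which are 1.71-, 1.61-, 1.57- and 1.51-fold. Without the 2 libraries that stood apart, the values were 1.22 for Stab1, 0.61 for Capns1, 0.59 for Fam180a, 0.64 for Dlk1 and 0.65 for Selenop. The groups did not overlap for any of the 5, as they did not for 10% of the 14870 genes in the higher direction. In that comparison 0.968% of genes were called higher and 3.85% in either direction, at a Benjamini-Hochberg adjusted p under 0.05 from edgeR's quasi-likelihood test, the rule for every call below. Because the choice of the genes fixed their direction here, nothing follows from these shares.

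With sORF7, a comparison that shares no library with that of sORF6, 4 of the 5 genes fell, where 3.66% of all genes tested were called lower. Dlk1 fell by 0.64 ± 0.11 (SE) on the log2 scale, which is 1.56-fold (edgeR adjusted p = 0.00136). Stab1 fell by 0.56 ± 0.15, or 1.47-fold (edgeR adjusted p = 0.0303). Fam180a fell by 0.47 ± 0.11 (edgeR adjusted p = 0.0121) and Selenop by 0.46 ± 0.08 (edgeR adjusted p = 0.000863), both 1.38-fold. For these 4 genes all 3 sORF7 libraries were lower than all 3 controls, as was so for 11.3% of genes. Capns1 had a log2 fold change of -0.20 ± 0.21 with overlapping groups (edgeR adjusted p = 0.671). Dlk1 and Selenop were called under every alternative setting and with any 1 library left out. The call of Stab1, the gene with the fewest reads, was lost in DESeq2 (adjusted p = 0.0805), without replicate 1 or 2 of the control (edgeR adjusted p = 0.134 and 0.0799), without replicate 1 or 2 of sORF7 (edgeR adjusted p = 0.0917 and 0.106) and in other fits, and that of Fam180a without replicate 2 of the control (edgeR adjusted p = 0.0739). In the authors' deposited table the q-values are labelled degseq, a method other than edgeR, and are not comparable with the edgeR values. For sORF7 they were 6.16e-10 for Dlk1, 1.97e-20 for Selenop, 3.65e-05 for Fam180a, 0.00366 for Stab1 and 0.112 for Capns1.

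Opposite calls in these comparisons were not confined to the 5 genes. The counts here are over all tested genes, with the 5 left in. Of the 144 genes called higher with sORF6, 77 were called lower with sORF7, which is 53.5% of them and 14.2% of the 544 genes called lower with sORF7. With sORF8, 4 of the 144 were called lower (2.78%) and 17 higher (11.8%). A fall with sORF7 was thus common among genes higher with sORF6, and nothing here sets Stab1, Dlk1, Selenop and Fam180a apart from the rest of them.

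**Figure D2:**
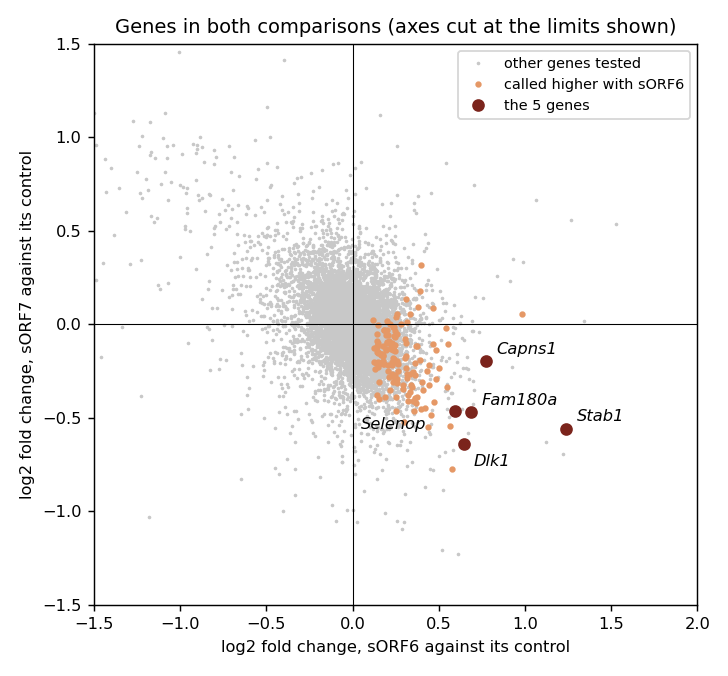
Log2 fold change with sORF7 (vertical axis) against log2 fold change with sORF6 (horizontal axis), each against its own control, for the tested genes, with the 5 genes named. Stab1, Dlk1, Selenop and Fam180a lie at positive sORF6 and negative sORF7 values, and Capns1 lies at 0.77 and -0.20.

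With sORF8 none of the 5 genes was called by edgeR, DESeq2 or limma, where edgeR called 3.75% of genes. An unadjusted edgeR p under 0.05 was reached by 0 of the 5 and by 2468 of all 14870 genes tested. Most genes did not reach it either, so the 0 says little about these 5. The log2 fold change was -0.22 ± 0.15 for Stab1 (95% confidence interval -0.53 to 0.08), -0.15 ± 0.11 for Dlk1 (-0.39 to 0.08) and -0.18 ± 0.11 for Fam180a (-0.41 to 0.04). Selenop had the narrowest interval, -0.19 to 0.13 around -0.03 ± 0.08. Capns1 had 0.40 ± 0.22, with an interval of -0.05 to 0.85. The lower bound for Stab1 is close to its fall with sORF7, so these data do not show that sORF8 left it unaltered. The Fam180a groups did not overlap, with sORF8 the lower, as was so for 12.9% of genes. For Capns1, the authors' deposited table gives a log2 fold change of 0.39 and a degseq q-value of 0.000386, where the edgeR adjusted p was 0.370.

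The difference between the sORF7 and sORF8 effects was tested for each gene. It passed for Selenop, at -0.43 ± 0.11 on the log2 scale (95% confidence interval -0.66 to -0.20, edgeR adjusted p = 0.0214), in a test that called 7.72% of genes. The call was lost in 5 of 12 fits that left out 1 library, which were replicates 1 and 3 of sORF7, replicate 2 of its control, and replicates 2 of sORF8 and its control, with adjusted p up to 0.0663 in edgeR. Dlk1 differed by -0.49 ± 0.16 (edgeR adjusted p = 0.0717), Stab1 by -0.34 ± 0.21 (edgeR adjusted p = 0.382), Fam180a by -0.29 ± 0.15 (edgeR adjusted p = 0.291) and Capns1 by -0.60 ± 0.30 (edgeR adjusted p = 0.253), so for these 4 genes a difference between the sORF7 and sORF8 responses was not shown.

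**Figure D3:**
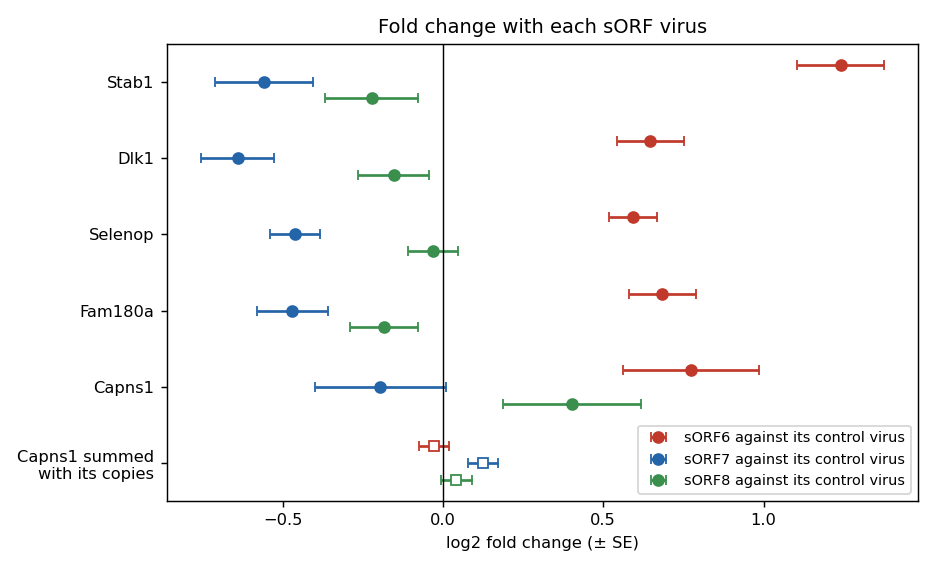
Log2 fold change and its standard error for Stab1, Dlk1, Selenop, Fam180a and Capns1 in the sORF6, sORF7 and sORF8 comparisons, each against its own control virus, with open squares for Capns1 summed with its copies. Values with sORF6 run from 0.59 to 1.24, those of 4 genes with sORF7 run from -0.64 to -0.46, and those with sORF8 from -0.22 to 0.40.

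The sORF8 and sORF7 control groups, the only controls tested against each other, also differed. Fam180a was higher in the sORF8 control than in the sORF7 control by 0.32 ± 0.11 on the log2 scale (edgeR adjusted p = 0.0217), and Capns1 was lower, at a log2 fold change of -0.61 ± 0.21 (edgeR adjusted p = 0.0306), where 37.7% of all genes were called. Stab1 was at 0.34 ± 0.15 (edgeR adjusted p = 0.0752), Dlk1 at 0.08 ± 0.11 (edgeR adjusted p = 0.640) and Selenop at -0.14 ± 0.08 (edgeR adjusted p = 0.165). With 1 library left out, Fam180a lost its call in 3 of 6 fits (edgeR adjusted p up to 0.128), without replicate 1 or 3 of the sORF7 control or replicate 3 of the sORF8 control. Capns1 also lost its call in 3 of 6, without replicate 1 of the sORF7 control or replicate 2 or 3 of the sORF8 control (edgeR adjusted p up to 0.305). Without the sORF7 control library that stood apart and its sORF6 counterpart, Capns1 was at -0.27 (edgeR adjusted p = 0.236) and Stab1 at 0.44 (edgeR adjusted p = 0.0441). The control virus, the culture and the time of preparation cannot be told apart in this contrast.

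Capns1 needs its copies beside it. The table holds 2 further genes described as calpain small subunit 1-like, LOC100912380 at chr1:88623125-88658931 on the minus strand and LOC108348197 at chr1:90918031-90921237 on the plus strand, and estimated counts divide reads among such copies. LOC100912380 had 3143 to 4240 counts per library, LOC108348197 2.42 to 9 and Capns1 97.7 to 308. Capns1 thus received 5.97% to 6.38% of the counts of the 3 genes with sORF6 and 2.60% to 4.26% in the sORF6 control. In the sORF7 control that share was 8.58% in replicate 1 and 3.94% and 4.75% in the other two.

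Summed over the 3 genes, the level was 207 ± 4.39 CPM (SD, n = 3) with sORF6 and 211 ± 8.58 CPM in its control, and the 2 groups overlapped. The log2 fold change of the sum with sORF6 was -0.03 ± 0.05, against 0.77 for Capns1 alone. With sORF7 the sum was 245 ± 2.94 CPM against 225 ± 15.7 CPM, a log2 fold change of 0.12 ± 0.05 (edgeR adjusted p = 0.132). With sORF8 it was 221 ± 5.605 CPM against 214 ± 11.3 CPM, at 0.04 ± 0.05 (edgeR adjusted p = 0.727). The rise of Capns1 with sORF6 therefore belongs to a row that holds a small share of the subunit's reads, and was not seen in the sum. Capns2, the second small subunit gene, had 0 to 5 counts per library.

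**Figure D4:**
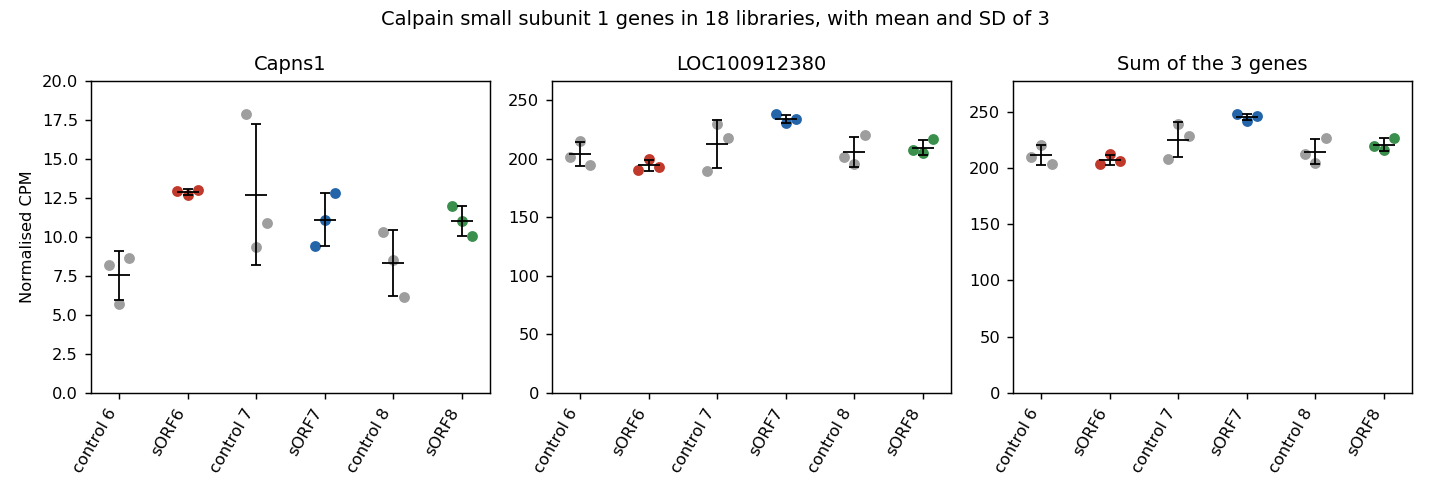
Normalised CPM of Capns1, of LOC100912380 and of the sum of the 3 calpain small subunit 1 genes in the 18 libraries, with the mean and SD of 3 libraries and axes that start at 0. Capns1 is higher with sORF6 than in its control, while the sum overlaps between these groups at means of 207 and 211.

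Across all 18 libraries, Stab1, Dlk1, Selenop and Fam180a followed each other, with Pearson r of log2 CPM from 0.789 (Selenop and Fam180a) to 0.92 (Stab1 and Dlk1). Capns1 had r of 0.0653 to 0.213 with them. These values describe differences between groups, since the libraries share their groups and the rise with sORF6 was the reason for the choice. After group means were taken away, r among the 4 genes ran from -0.169 to 0.28.

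The genes most like each were looked up among genes whose mean log2 CPM reached 1, without the 5 themselves and unnamed loci (11685 genes). Col8a2, a chain of collagen VIII, was among the 3 nearest to Stab1 (r = 0.932), Dlk1 (0.942) and Fam180a (0.94). Col5a3, a chain of collagen V, was near to Dlk1 (0.951) and Selenop (0.947), and Apoe, the lipid-carrying apolipoprotein E, near to Selenop (0.949) and Stab1 (0.928). Phf24, Tns2 (tensin 2), Islr, Hbegf (a heparin-binding growth factor) and Eml4 completed the sets, with r of 0.965 to Dlk1, 0.953 to Selenop, 0.95 and 0.929 to Fam180a and 0.921 to Stab1. For Capns1 the nearest was Sgk3, a kinase, at r = 0.729. The likeness over all libraries fixes how such genes move with sORF6 and sORF7, so their fold changes are given without a test: with sORF7 they were -0.55 for Col8a2 and Col5a3, -0.42 for Islr, -0.41 for Phf24, -0.23 for Tns2, -0.19 for Apoe, -0.12 for Hbegf and -0.07 for Eml4.

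Of 18 other scavenger receptors tested, 3 fell with sORF6, where Stab1 was higher and 2.88% of all genes were called lower: Cxcl16, a chemokine that is also a scavenger receptor, at a log2 fold change of -0.70 ± 0.07, Msr1, the class A receptor of macrophages, at -0.61 ± 0.14, and Olr1, the oxidised LDL receptor, at -0.59 ± 0.09 (edgeR adjusted p at most 0.0148). The same 3 genes rose with sORF7, by 0.29 ± 0.07, 0.63 ± 0.14 and 0.42 ± 0.08 (edgeR adjusted p at most 0.0150), among 4 that rose, where 4.12% of all genes were called higher, and Scara5, a ferritin receptor, fell at -0.41 ± 0.11 (edgeR adjusted p = 0.0314). The median over the list was 0.03 with sORF6, -0.04 with sORF7 and 0.07 with sORF8, beside 0.00 over all genes in each comparison. With sORF8, edgeR, DESeq2 and limma called 0 of the 18, with 3 at an unadjusted p under 0.05. Of all 14870 genes tested, 2264 had an unadjusted p under 0.05 with sORF6, 2979 with sORF7 and 2468 with sORF8. Unadjusted counts for this list and those below are to be read beside these. Leaving out the 2 libraries that stood apart, edgeR called 2 of the 18 lower with sORF6 and 1 higher with sORF8. Stab2, the paralogue of Stab1, had 0 to 3 counts per library and was not tested. Among 9 genes of stabilin-1 ligands and sorting adaptors, Sparc rose with sORF6 by 0.12 ± 0.03 (edgeR adjusted p = 0.0120) and with sORF8 by 0.10 ± 0.03 (edgeR adjusted p = 0.0366). Gdf15, a stress-induced secreted factor, rose with sORF7 by 0.35 ± 0.08 (edgeR adjusted p = 0.0123) and Postn, periostin, fell at -0.16 ± 0.04 (edgeR adjusted p = 0.0128). Both lost their calls without the 2 libraries that stood apart, where edgeR called 0 of these 9 with sORF7 and 2 higher with sORF8.

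In the Notch pathway, to which Dlk1 is related, 2 of 26 genes tested were called with sORF6, where 3.85% of all genes were, and 3 with sORF7, where 7.77% were. Notch3, a receptor of mural cells, rose with sORF6 by 0.26 ± 0.06 (edgeR adjusted p = 0.0190) and fell with sORF7 at -0.25 ± 0.07 (edgeR adjusted p = 0.0229). Adam17, a sheddase, went the other way, at -0.21 ± 0.04 (edgeR adjusted p = 0.00453) and 0.19 ± 0.04 (edgeR adjusted p = 0.00676). The list's median was 0.00 in both comparisons. Notch3 lost its call with sORF6 without the 2 libraries that stood apart, where edgeR called 0 of the 26 higher. Of 25 imprinted genes other than Dlk1, 2 were called with sORF6 and 3, all lower, with sORF7. Mest rose with sORF6 by 0.36 ± 0.06 (edgeR adjusted p = 0.00156) and fell with sORF7 at -0.27 ± 0.07 (edgeR adjusted p = 0.0151), and Dcn, decorin, fell with sORF6 at -0.19 ± 0.05 (edgeR adjusted p = 0.0220). Grb10, an adaptor that dampens insulin signalling, and the growth factor Igf2 fell with sORF7 at -0.37 ± 0.04 (edgeR adjusted p = 1.45e-05) and -0.36 ± 0.08 (edgeR adjusted p = 0.00525). With sORF8 edgeR called 0 genes of either list, with 3 Notch pathway genes and 7 imprinted genes at an unadjusted p under 0.05, DESeq2 called 0, and limma called 1 imprinted gene. With the 2 libraries that stood apart left out, edgeR called 1 imprinted gene lower with sORF8. In that fit it called 2 imprinted genes higher and 1 lower with sORF6.

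Of 19 other selenoproteins tested, edgeR called 0 with sORF6 (1 at an unadjusted p under 0.05, 0 in DESeq2 and 0 in limma), with a median log2 fold change of -0.03. With sORF7, Txnrd1, a thioredoxin reductase, rose by 0.15 ± 0.03 (edgeR adjusted p = 0.0118) and Msrb1, a methionine sulfoxide reductase, by 0.34 ± 0.10 (edgeR adjusted p = 0.0401). Of all genes, 4.12% were called higher with sORF7. With sORF8, Txnrd1 fell at -0.25 ± 0.03 (edgeR adjusted p = 0.000177). When the 2 libraries that stood apart were left out, edgeR called 1 of the 19 higher with sORF7, and 1 higher and 1 lower with sORF8. Of 10 genes for selenocysteine synthesis and the uptake of selenoprotein P, edgeR, DESeq2 and limma called 0 in each of the 3 comparisons, with 0, 1 and 2 at an unadjusted p under 0.05. Of 10 tested calpains and calpastatin, edgeR and limma called 0 in each comparison and DESeq2 called 1 with sORF6, and 2 had an unadjusted p under 0.05 in each. With the 2 libraries that stood apart left out, edgeR called 1 of the 10 higher with sORF6. Capn6, a calpain without protease activity, had the smallest p with sORF6, at 0.57 ± 0.17 (edgeR adjusted p = 0.0698).

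Marker genes of other cell types moved with some of these results. In bulk RNA, fewer cells of a type and less RNA per cell cannot be told apart. The summed level of 16 fibroblast markers was 8928 to 9447 CPM with sORF6, above the 7964 to 8742 CPM of its control, with a ratio of medians of 1.088. With sORF7 it was 7679 to 8039 CPM, below the 8092 to 9025 CPM of its control, at a ratio of 0.938, and with sORF8 it overlapped, at 0.993. Most of the gap with sORF6 and with sORF7 was Col1a1, a chain of collagen I. It was at 5803 ± 133 CPM (SD) with sORF6 against 5261 ± 340 CPM in its control. With sORF7 it was at 5139 ± 116 CPM against 5563 ± 321 CPM. The directions of the sums with sORF6 and sORF7 are those of Stab1, Dlk1, Selenop and Fam180a, but the sums mainly follow Col1a1. By single genes, Mfap4 (0.35 ± 0.05) and Col3a1 (0.18 ± 0.04) rose and Dcn (-0.19 ± 0.05) fell with sORF6, each at an edgeR adjusted p of at most 0.0247. With sORF7, where 3.66% of all genes were called lower, 5 of the 16 fell, among them Gas1 at -0.43 ± 0.07 (edgeR adjusted p = 0.000345). Leaving out the 2 libraries that stood apart, edgeR called 1 of the 16 higher and 0 lower with sORF6, and 4 lower with sORF7. The part of fibroblast RNA in the levels of the 4 genes was not tested.

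Macrophages are a cell type known for Stab1, and their markers moved in both directions with sORF6. The sum over 18 markers was 157 to 171 CPM with sORF6 and 172 to 199 CPM in its control, a ratio of medians of 0.859. Most of that gap was Adgre1, at 48.8 ± 3.50 CPM (SD, n = 3) against 74.7 ± 6.03 CPM, while Lyz2 was at 40.1 ± 2.48 against 34.1 ± 3.56 CPM and Csf1r at 14.8 ± 1.27 against 12.1 ± 0.68 CPM. Of the 14 tested, 5 were lower and 3 higher with sORF6 at an unadjusted p under 0.05. Adgre1 (-0.61 ± 0.10) and Itgam (-0.83 ± 0.17) fell with sORF6, and Csf1r (-0.49 ± 0.14) and Lyz2 (-0.36 ± 0.10) fell with sORF7 (edgeR adjusted p at most 0.0362). With sORF7 the sums overlapped, at a ratio of 0.955. Of the markers with few counts, Cd163 was at 0 in all 6 libraries of the sORF7 comparison and at 8 or fewer elsewhere, and C1qb at 5 or fewer. With sORF6 and in its control, C1qa, at 19 counts or fewer, had means of 0.85 and 0.27 CPM. C1qc, at 14 counts or fewer, had 0.54 and 0.23 CPM. Mrc1 had 6.32 ± 0.92 and 5.29 ± 0.39 CPM, while Aif1 went the other way, at 2.25 ± 0.32 and 3.26 ± 0.52 CPM. Without the 2 libraries that stood apart, the list's median with sORF6 was 0.07 over 15 tested genes, against -0.16 over 14 with all libraries. In that fit edgeR called 1 of the 15 lower with sORF7.

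Endothelial markers summed to 394 to 408 CPM with sORF6, above the 363 to 388 CPM of the control, at a ratio of 1.067. Nearly all of that gap was Eng, endoglin, which fibroblasts can also express, at 318 ± 7.71 CPM (SD, n = 3) against 294 ± 9.74 CPM, while Cdh5, VE-cadherin, was at 1.14 ± 0.28 against 2.10 ± 0.75 CPM (edgeR adjusted p = 0.101 and 0.201). The sums overlapped in the other 2 comparisons. EdgeR, DESeq2 and limma called 0 of 13 tested endothelial genes in each comparison, with 2, 2 and 1 at an unadjusted p under 0.05. With the 2 libraries that stood apart left out, edgeR called 1 of the 13 higher with sORF8. Cardiomyocyte markers were abundant in every library, with sums of 39602 to 68733 CPM. That sum overlapped with its control in the sORF6 comparison (ratio 1.069), lay lower with sORF7 (ratio 0.893) and higher with sORF8 (ratio 1.216). Of 12 cardiomyocyte markers, 2 rose and 1 fell with sORF6, 4 fell with sORF7 and 6 rose with sORF8. Over all genes, 0.968% were called higher and 2.88% lower with sORF6, 3.66% lower with sORF7 and 2.03% higher with sORF8. When the 2 libraries that stood apart were left out, 4 of the 12 markers rose and 1 fell with sORF6, 8 fell with sORF7 and 11 rose with sORF8. Myh7, the slow myosin heavy chain, rose with sORF6 by 0.25 ± 0.06 and fell with sORF7 at -0.46 ± 0.06 (edgeR adjusted p at most 0.0217). Myh6, the fast heavy chain, fell with sORF6 at -0.32 ± 0.07 (edgeR adjusted p = 0.0117) and was at 0.20 ± 0.07 with sORF7 (edgeR adjusted p = 0.0972). With sORF8, Myh6 rose by 0.80 ± 0.07 (edgeR adjusted p = 2.19e-06) and Myh7 by 0.34 ± 0.06 (edgeR adjusted p = 0.00291), where 2.03% of all genes were called higher. Of 9 smooth muscle and pericyte markers, Acta2, smooth muscle actin, fell with sORF6 at -0.15 ± 0.04 (edgeR adjusted p = 0.0490) and rose with sORF8 by 0.22 ± 0.04 (edgeR adjusted p = 0.00552), and Abcc9, a potassium channel subunit, rose with sORF7 by 0.20 ± 0.05 (edgeR adjusted p = 0.0296). The sum of these 9 was 2960 to 3079 CPM with sORF6, below the 3148 to 3204 CPM of its control (ratio 0.955). This sum overlapped with its control in the sORF7 comparison (ratio 1.028) and lay higher with sORF8 (ratio 1.08). Of 9 epicardial markers edgeR and limma called 0 in each comparison, with 0, 3 and 1 at an unadjusted p under 0.05, and DESeq2 called 1 with sORF7, where their sum lay below its control (ratio 0.917). With the 2 libraries that stood apart left out, edgeR called 2 epicardial markers lower with sORF7. The part of these shifts in the levels of Stab1, Dlk1, Selenop and Fam180a was not tested.

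**Figure D5:**
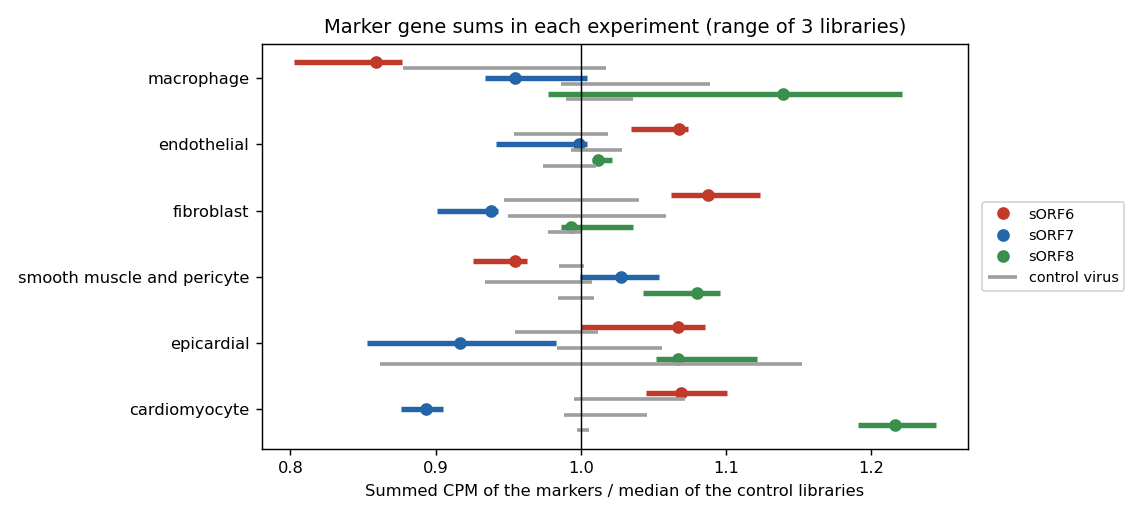
Median summed level of each cell type's marker genes with an sORF virus divided by the median with its control virus, for the sORF6, sORF7 and sORF8 comparisons, with coloured lines for the range of the 3 sORF libraries and grey lines for that of their controls, on the same scale. Fibroblast markers are at 1.088 with sORF6 and 0.938 with sORF7, macrophage markers at 0.859 with sORF6, and cardiomyocyte markers at 1.216 with sORF8.

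Fold changes were related to transcript length across 12512 genes, where Spearman's rho was 0.228 in the sORF6 comparison, -0.128 in that of sORF7 and 0.0557 in that of sORF8. Stab1, with an effective length of 8082 bases, is by far the longest of the 5, against 760 to 2030 bases for the others. With a length correction Stab1 was at 1.18 in the sORF6 comparison, against 1.24 without it, and it kept its call with sORF7.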

How the data were processed

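RNA sequencing of 18 libraries was analysed. The authors deposited 1 table of 19880 genes with estimated counts, FPKM, log2 fold changes and q-values. Per the submitters' processing notes, the tools include HISAT2 2.0.4, RSEM 1.2.12 and DESeq2 1.4.5 on build Rnor_6.0, and strand use in counting is not stated in those notes or in the labels. For the tests the deposited estimated counts were rounded to whole values. The deposited FPKM served for levels and the limma alternative. The authors' log2 fold changes and q-values are quoted where their table is named. Its column headers label those q-values degseq.

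In R 4.3.3, edgeR 4.0.16 (filterByExpr, TMM, quasi-likelihood test, 6 groups, all 18 libraries, 12 residual degrees of freedom) tested 14870 genes with Benjamini-Hochberg adjustment over all of them, calling an adjusted p under 0.05. The common biological coefficient of variation was 6.9%. Normalised CPM are counts divided by the TMM-scaled library size. Alternatives were DESeq2 1.42.0, its size factors, limma 3.58.1 on log2(FPKM + 1) and log2(FPKM + 0.1), no filter, the compared groups alone, a replicate block, a correction for transcript length, each library left out, both libraries that stood apart left out (added after seeing the data) and Capns1 summed with its copies. Scripts were tested on simulated data.

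The 5 genes and the 13 gene lists were chosen with earlier results of these data known. Named are the 5 genes, of each list the called genes (at most 4 with the smallest adjusted p per comparison, or the 2 with the smallest p where none was called), and the 3 genes with the highest Pearson r to each of the 5, from which the text takes those it names. Cd163, C1qb, Stab2 and Capns2 were named for their near absence. C1qa, C1qc, Mrc1 and Aif1 were added as macrophage markers that moved in either direction, and Col1a1 for its weight in the fibroblast sum. Promoter windows are from RefSeq, build GRCr8, while positions of genes are those of the deposited table.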

Additional observations from a re-analysis of the deposited data

Results flagged for a closer look

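For Selenop, the difference between the sORF7 and sORF8 effects passed the test, at -0.43 on the log2 scale (edgeR adjusted p = 0.0214), and lost its call in 5 of 12 fits that left out 1 library (edgeR adjusted p up to 0.0663). It came from a log2 fold change of -0.46 with sORF7, with 3 of 3 libraries below every control, and of -0.03 with sORF8, with overlapping groups.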

How the results depend on the processing

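Dlk1 and Selenop kept their fall with sORF7 under every alternative run, with log2 fold changes of -0.72 to -0.51 and -0.53 to -0.37 when 1 library was left out. Stab1 lost its call in DESeq2 (-0.55), limma with a pseudocount of 1 (-0.16) or 0.1 (-0.45), the compared groups alone (-0.56), the replicate block (-0.55, edgeR adjusted p = 0.0691), the block with length correction (-0.52) and without both libraries that stood apart (-0.46), and ranged from -0.66 to -0.46 with 1 library left out. Fam180a lost it in the compared groups alone (-0.47) and ranged from -0.54 to -0.36. Capns1 with sORF7 changed sign without both libraries (0.14) and when summed (0.12), and ranged from -0.37 to 0.14. Summing turned Capns1 to -0.028 with sORF6 and to 0.082 in the difference between the sORF7 and sORF8 effects, because the sum is mostly LOC100912380. That difference for Selenop ranged from -0.50 to -0.34 with 1 library left out. Between the sORF8 and sORF7 controls, Stab1 was called without both libraries (0.44) and ranged from 0.24 to 0.44. Fam180a lost its call in the compared groups alone (0.32) and in 3 of 6 fits without 1 library, and ranged from 0.23 to 0.44. Capns1 lost it in limma (-0.51 and -0.55), the compared groups alone (-0.61), with length correction (-0.52), block and length (-0.51), without both libraries (-0.27) and summed (-0.071), and ranged from -0.79 to -0.26. Genes called numbered 572, 1156 and 558 for sORF6, sORF7 and sORF8, against 335, 689 and 865 in the compared groups alone, and 368 to 527, 681 to 954 and 264 to 382 with 1 library left out. For sORF8 they were 926 with length correction and 988 without both libraries. Where no cause is given, the cause was not tested. Replicate numbers did not pair the samples (r of -0.0225 to 0.178 between libraries of the same number, 10 of 18 libraries closest to their own number), and the replicate block changed no call of the 5 genes other than that of Stab1. At its lowest count, Stab1 has a counting coefficient of variation of 15.1%.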
